A study of Mus musculus with 31 samples.

Results

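6 RNA-seq libraries of mouse astrocytes sorted after a single injection were divided into sets chosen by their measured level of Lcn2, and the 3 high libraries were set against the 3 low ones. They are 6 of the 12 RNA-seq libraries and of the 31 samples of the series. Estimated counts were summed per gene and scaled to the library total as CPM (counts per 1000000), and a library with Lcn2 at 100 CPM or more was placed in the Lcn2-high set. Lcn2 stood at 1069 CPM in 1X PBS replicate 2, at 718 CPM in 1X PBS replicate 3 and at 803 CPM in 1X cytokine replicate 1. The Lcn2-low libraries were 1X PBS replicate 1 at 5.03 CPM, 1X cytokine replicate 2 at 11.4 CPM and 1X cytokine replicate 3 at 3.73 CPM. The lowest high library therefore held 718 CPM and the highest low library 11.4 CPM, and no library lay near the threshold. The grouping is by expression and crosses the treatment labels: 2 libraries labelled PBS and 1 labelled cytokine are Lcn2-high, and 1 labelled PBS and 2 labelled cytokine are Lcn2-low. Lcn2 chose the sets and is left out of every count below, and since every other gene was read from the same libraries, the split carries no test.

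All 12 libraries came from female C57Bl/6 mice of 10 weeks, and the labels name no transgene for them. The mice labelled cytokine received IL-1β at 100 ng/mL with TNF-α at 50 ng/mL into both lateral ventricles, and the mice labelled PBS received the carrier. The 1X mice had their only injection on day 7, the 2X mice a second one that day after an earlier first, and astrocytes were sorted 18 to 24 hours later. One label of the cytokine samples mentions TNF-α alone, although their protocol adds IL-1β. No source used here gives the sort markers. The labels do not say whether a library is 1 animal, so the p-values below measure the spread between libraries.

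Lcn2 encodes lipocalin 2, a secreted protein that binds bacterial iron carriers. It is an acute phase product of reactive astrocytes and also a granule protein of neutrophils. IL-1β and TNF-α act on astrocytes largely through NF-κB, which turns on chemokines, adhesion molecules, complement and its own inhibitors. Reactive astrocytes commonly lower genes of transmitter uptake and potassium handling.

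Total estimated counts ran from 1878418 to 5521679 over the 12 libraries, at which 3 counts correspond to between 0.543 and 1.60 CPM. Depth moved with the split: the Lcn2-high libraries held 3634445 to 4661577 estimated counts and the Lcn2-low libraries 1878418 to 2785087. Mitochondrially encoded transcripts took 4.38% to 4.80% of the counts in the Lcn2-high libraries and 5.28% to 5.83% in the Lcn2-low. Markers of neutrophils, monocytes, choroid plexus, ependyma and red cells also moved with it, as given with their values further on. Their part in the results, and that of depth, was not tested, except by an alternative chosen after the data were seen. Thinning each 1X library to 1878132 counts gave 275 genes higher and 203 lower by the 2-fold rule described next, where the full depth gave 327 and 196. The thinned run was a single random draw, filtered anew to 12566 genes where the full depth kept 13851. It was also scaled over the 1X libraries alone, so more than depth differed.

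Of 13850 genes measured in the 1X libraries, 5704 (41.2%) had no overlap between the Lcn2 sets: 2911 (21%) were higher in every Lcn2-high library than in any Lcn2-low library, and 2793 (20.2%) were lower. On the deposited TPM scale the same division was 1622 higher and 3030 lower. The distance between the sets was measured as a gap, the lowest value of the higher set over the highest value of the lower set after adding 0.5 CPM. The gap reached 2-fold for 327 genes (2.36%) higher and 196 genes (1.42%) lower in the Lcn2-high libraries, and 304 and 187 of these are labelled protein-coding. In 133 of the 327, a Lcn2-low library lay under 3 counts, so the size of the gap there depends on the 0.5 CPM added. Without 1X cytokine replicate 1 the counts were 537 and 410, and without 1X cytokine replicate 2 the lower count was 340.

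The same 6 libraries arranged by their labels separated far fewer genes: 852 (6.15%) had no overlap between the 3 PBS and the 3 cytokine libraries. The Lcn2 sets were drawn from expression in these libraries and the labels were not, so the 2 counts are not on equal terms. By edgeR's quasi-likelihood test, 0 of 13851 genes passed an adjusted p of 0.05 for 1X cytokine against 1X PBS, DESeq2 called 0, and 245 (1.77%) had an unadjusted p under 0.05 in edgeR. Between 2 libraries of the Lcn2-high set the median absolute difference over genes was 0.175 to 0.235 on the log2 scale, and between 2 of the Lcn2-low set 0.269 to 0.273. Between a high and a low library it was 0.345 to 0.448.

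Reactive astrocyte genes were mostly higher with Lcn2: 10 of the 12 measured lay higher in every Lcn2-high library, against 21% of all genes, with 4 at a gap of 2-fold or more. Values are given throughout as TMM-scaled CPM in the order 1X PBS 2, 1X PBS 3 and 1X cytokine 1 for the Lcn2-high libraries, and 1X PBS 1, 1X cytokine 2 and 1X cytokine 3 for the Lcn2-low libraries. Gfap, the intermediate filament that marks astrocytes (chr11:102887336-102900912, GRCm38), stood at 701, 585 and 725 CPM in the high set and 189, 233 and 153 CPM in the low set. Serpina3n, a secreted protease inhibitor (chr12:104406729-104414329), stood at 652, 476 and 727 CPM against 62.4, 98.7 and 19.8 CPM. For both genes the library labelled cytokine in the high set was the highest of the 6, and the library labelled PBS in the low set lay between the 2 labelled cytokine.

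Steap4, a metalloreductase, stood at 142, 107 and 89 CPM in the Lcn2-high libraries and 17.5, 22.3 and 12.1 CPM in the Lcn2-low, a gap of 3.93-fold. Cp, the copper-carrying ferroxidase ceruloplasmin, stood at 346, 304 and 294 against 63.5, 97.9 and 46.7 CPM, a gap of 2.99-fold. Vim, the intermediate filament vimentin, was separated by less, at 1604, 1609.8 and 1365 against 1118, 1061 and 867 CPM. Timp1, an inhibitor of matrix metalloproteinases, did not follow the split: its values were 124, 129 and 135 CPM in the high set and 143, 83.3 and 45.6 CPM in the low set, and the 1X PBS 1 library was the highest of all. Hspb1, a small heat shock protein, was the other member whose sets overlapped. The plot of 19 genes by library shows these levels beside those of the 2X libraries.

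**Figure D1:**
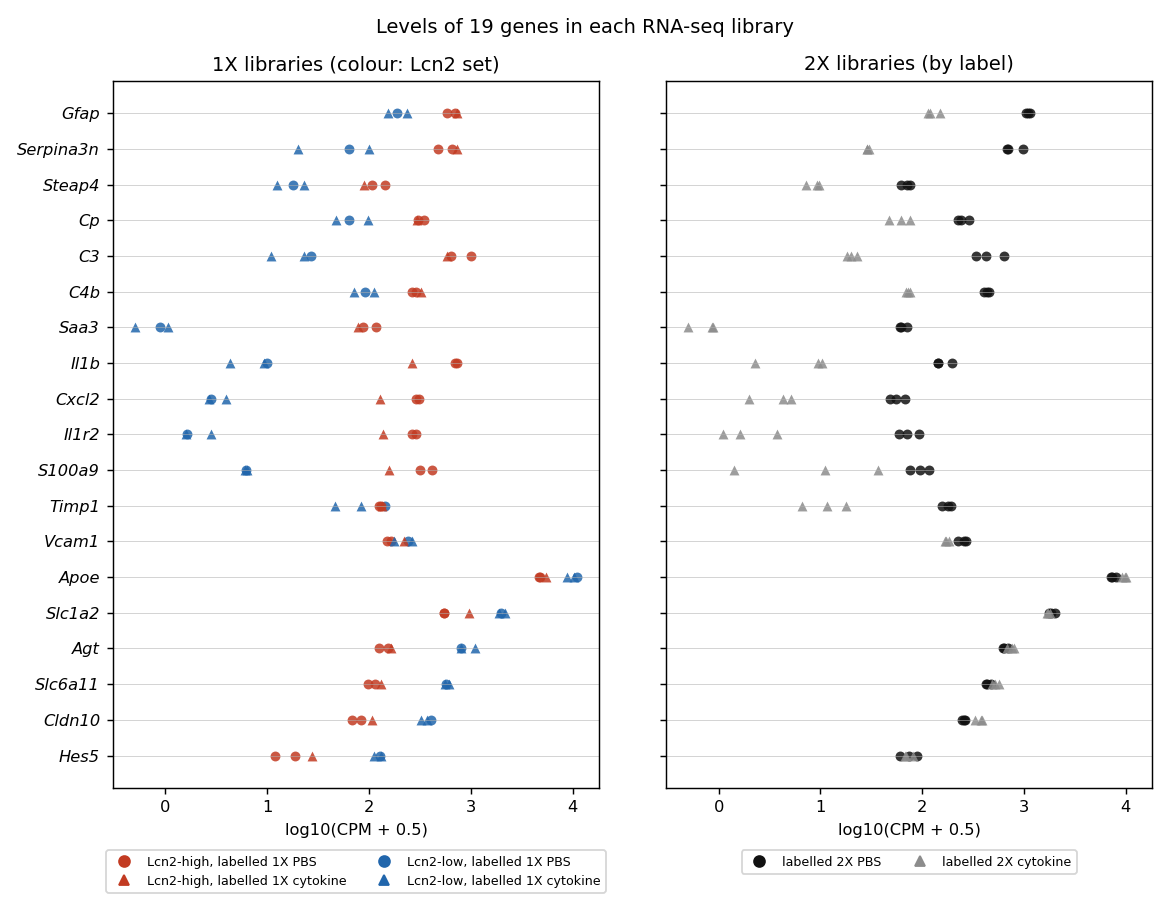
Levels of 19 genes in each of the 12 RNA-seq libraries, as log10 of CPM + 0.5 on the horizontal axis. Points are single libraries: on the left the 1X libraries coloured by Lcn2 set (circles labelled PBS, triangles labelled cytokine), on the right the 2X libraries by label. The red and blue points are apart for each gene except Timp1 and Vcam1.

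Complement and acute phase genes showed the same division. Of 15 measured members, 13 were higher in every Lcn2-high library, against 21% of all genes, and 9 had a gap of 2-fold. C3, the central complement component (chr17:57203970-57228136), stood at 997, 634 and 589 CPM in the Lcn2-high libraries and 26.6, 22.7 and 10.4 CPM in the Lcn2-low libraries, a gap of 21.7-fold. C4b, which forms the C3 convertase and shares sequence with a near copy so that its reads can be divided between them, stood at 288, 264 and 325 against 91.3, 113 and 71.4 CPM. C1ra, a protease of the first complement component, stood at 160.1, 142 and 145 against 25.5, 24.2 and 20.3 CPM. All 3 high libraries lay above all 3 low ones for these genes, and the C3 sets were the farthest apart of the 3.

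The acute phase genes Saa3 and Orm2 were near absence in the Lcn2-low libraries. Saa3, a serum amyloid A protein, stood at 116, 87 and 77.7 CPM in the high set and 0.38, 0 and 0.549 CPM in the low set, where no library held more than 1 count. Orm2, an orosomucoid, stood at 42.7, 17.2 and 15.7 against 0, 0 and 0 CPM. Masp1, a protease of the lectin pathway, went the other way at 6.1, 5.33 and 11.8 against 32, 31.5 and 27.5 CPM, and C2 overlapped. Summed over all 17 genes of the list, including the 2 too low to be measured singly, the level was 1909 to 2514 CPM in the Lcn2-high and 380 to 545 CPM in the Lcn2-low libraries.

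Among chemokines and cytokines, 15 of 22 measured members were higher and 2 lower in every Lcn2-high library, against 21% and 20.2% of all genes. Of the 15, 10 reached a 2-fold gap. Cxcl2, which attracts neutrophils, stood at 291, 311 and 126 CPM in the Lcn2-high libraries and 2.28, 3.46 and 2.2 CPM in the Lcn2-low. Il1b, the gene of the injected cytokine IL-1β, stood at 729, 707 and 265 against 9.51, 8.83 and 3.85 CPM. Ccl2, which attracts monocytes, stood at 27.2, 27.8 and 20.9 against 5.71, 7.68 and 2.2 CPM. For Cxcl2 and Il1b the library labelled cytokine was the lowest of the high set, under the level of each library labelled PBS by more than 2-fold, and for Ccl2 the 3 high libraries were closer together. Tnf, the gene of the other injected cytokine, overlapped, with 69.8, 86.5 and 22.6 against 16, 30.7 and 20.3 CPM. Cxcl14 and Il18 were the 2 lower members: Cxcl14 stood at 18.8, 31.3 and 50.9 against 140.4, 122 and 153 CPM.

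On the receiving side, 9 of 18 receptors and adaptors for IL-1 and TNF were higher and 2 lower in every Lcn2-high library. The shares of all genes were 21% and 20.2%. Among the 9, 3 were at a 2-fold gap. Those 3 were the decoy receptor Il1r2, the receptor antagonist Il1rn and the second TNF receptor Tnfrsf1b. Il1r2 stood at 262, 286 and 137 against 1.14, 2.3 and 1.1 CPM, and Tnfrsf1b at 88.7, 85.4 and 37.4 against 2.28, 4.61 and 11 CPM. The signalling receptors were closer: Il1r1 stood at 28, 26.7 and 23.3 against 9.13, 12.7 and 9.34 CPM, and Tnfrsf1a at 118, 123 and 109 against 81, 91.8 and 78 CPM. The adaptors and kinases Irak1, Irak2, Traf2, Traf6, Map3k7, Ripk1 and Tradd all overlapped.

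Targets and regulators of NF-κB were higher in every Lcn2-high library for 14 of 20 measured members, against 21% of all genes. Of these, 5 had a 2-fold gap, and 0 members were lower. Nfkbia, which encodes the inhibitor IκBα, stood at 924, 803 and 588 CPM in the high set and 199, 339 and 181 CPM in the low set. Relb, a subunit of the alternative NF-κB dimer, stood at 58.2, 44.1 and 37.4 against 11, 10.8 and 9.89 CPM, and Icam1, an adhesion molecule for leukocytes, at 148, 148 and 91.7 against 39.9, 44.2 and 35.7 CPM. Tnfaip3, the ubiquitin-editing inhibitor A20, had a narrow gap, with the library labelled cytokine far under the other 2 of the high set: 286, 246 and 65.4 against 16, 55.7 and 30.2 CPM. Vcam1, another leukocyte adhesion molecule, overlapped at 164, 151 and 219 against 240.0, 174 and 267 CPM, as did the subunits Rela and Nfkb1.

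Because genes of NF-κB signalling moved together in the split, their promoters were searched for the κB consensus on both strands, a search chosen after the values were seen. The window ran from 250 bases before to 50 bases after each gene start in the RefSeq table for GRCm38.p6, in which 5.14% of 27025 genes hold a match in at least 1 promoter (4.51% of 32851 promoters). A match was found for 8 of the 15 NF-κB list genes in the table (of 20), for 5 of 15 chemokine and cytokine genes (of 22), for 3 of 12 reactive astrocyte genes and for 3 of 20 homeostatic astrocyte genes (of 26). For complement and acute phase genes it was 0 of 8 (of 15), and for the 12 genes of largest gap 1 of 11 among the higher and 0 of 9 among the lower. The STAT motif TTCCNGGAA, searched in the same way, was found for 1.35% of all genes, 2 of 12 reactive astrocyte, 2 of 15 NF-κB, 1 of 20 homeostatic astrocyte and 0 of the chemokine and complement genes. A match says only that these letters occur in the window. 3 promoters with a match are shown, one each from a chemokine, a regulator and a reactive astrocyte gene; each is the 250 bases before the start, on the strand of the gene, with the match in capitals.
Cxcl2, chr5:90903649-90903898, plus strand: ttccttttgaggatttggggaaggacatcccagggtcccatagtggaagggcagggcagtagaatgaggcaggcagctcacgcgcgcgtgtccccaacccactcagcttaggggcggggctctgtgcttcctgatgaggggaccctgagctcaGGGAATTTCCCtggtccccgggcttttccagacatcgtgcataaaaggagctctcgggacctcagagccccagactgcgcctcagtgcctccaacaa
Nfkbia, chr12:55492648-55492897, minus strand: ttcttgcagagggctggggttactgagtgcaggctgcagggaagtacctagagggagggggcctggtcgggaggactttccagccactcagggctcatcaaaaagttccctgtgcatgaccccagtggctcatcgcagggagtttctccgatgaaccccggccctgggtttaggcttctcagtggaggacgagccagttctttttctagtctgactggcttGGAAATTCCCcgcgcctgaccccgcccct
Steap4, chr5:7960222-7960471, plus strand: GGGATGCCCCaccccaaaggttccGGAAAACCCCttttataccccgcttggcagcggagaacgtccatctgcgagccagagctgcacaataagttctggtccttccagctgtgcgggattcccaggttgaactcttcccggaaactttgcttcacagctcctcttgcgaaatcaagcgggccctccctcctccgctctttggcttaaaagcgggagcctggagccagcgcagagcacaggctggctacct
In Cxcl2, 2 overlapping matches begin 97 and 96 bases before the start. In Nfkbia the match begins 29 bases before the start, and in Steap4 matches begin 250 and 226 bases before it. Nfkbia and Steap4 were both higher in the Lcn2-high set, with gaps of 1.73-fold and 3.93-fold.

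Genes of gp130 and STAT3 signalling were less separated than those of NF-κB. In every Lcn2-high library 6 of 13 were higher and 1 lower, against 21% and 20.2% of all genes. Socs3, which inhibits this pathway, stood at 367, 361 and 289 against 261, 244 and 252 CPM, and Stat3 itself at 319, 274 and 284 against 178, 192 and 153 CPM. Pim1, a kinase gene that STAT3 activates, had the largest gap of the list at 75.6, 69.6 and 29.2 against 5.71, 7.68 and 9.34 CPM. Lifr, a receptor chain of the family, was the 1 lower member at 99.7, 111 and 114 against 179, 174 and 164 CPM.

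Antigen presentation by MHC class I was higher in every Lcn2-high library for 16 of 19 genes and lower for 0, against 21% and 20.2% of all genes. The heavy chain H2-D1 stood at 702, 703 and 543 CPM against 172, 212 and 157 CPM, and its partner B2m at 404, 512 and 330.3 against 145, 166 and 158 CPM. Psmb8, a subunit of the immunoproteasome, stood at 52.1, 42.2 and 29 against 7.61, 14.2 and 8.24 CPM. 15 of 22 genes stimulated by type I interferon and 7 of 12 guanylate-binding and immunity-related GTPases were also higher, with 2 of each list at a 2-fold gap and 0 lower. Gbp2, one of these GTPases, stood at 69, 51.7 and 57.3 against 21.7, 23.8 and 19.2 CPM. Reads of the H2, Gbp and Tgtp families can be divided among close copies, so single members are less certain than the lists.

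Homeostatic astrocyte genes formed the opposite group: 25 of 26 measured members were lower in every Lcn2-high library, against 20.2% of all genes, and 9 reached a 2-fold gap. Their summed level was 24810 to 33580 CPM in the Lcn2-high libraries and 59520 to 76680 CPM in the Lcn2-low libraries. Slc1a2, the main glutamate transporter of astrocytes (chr2:102658659-102790784), stood at 546, 546 and 969 CPM in the high set and 1974, 1878 and 2176 CPM in the low set. Aqp4, the water channel of astrocyte endfeet, stood at 266, 279 and 327 against 789, 455 and 659 CPM. Cldn10, a claudin, stood at 67.6, 82.3 and 105 against 402, 324 and 369 CPM, the largest gap of the list at 3.07-fold. Within the Lcn2-high set the library labelled cytokine was the highest for each of these 3 genes. Apoe, the lipid carrier, stood at 4632, 4800.3 and 5548 against 11099, 8916 and 10321 CPM, and Clu, a secreted chaperone, was the 1 member that overlapped.

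**Figure D2:**
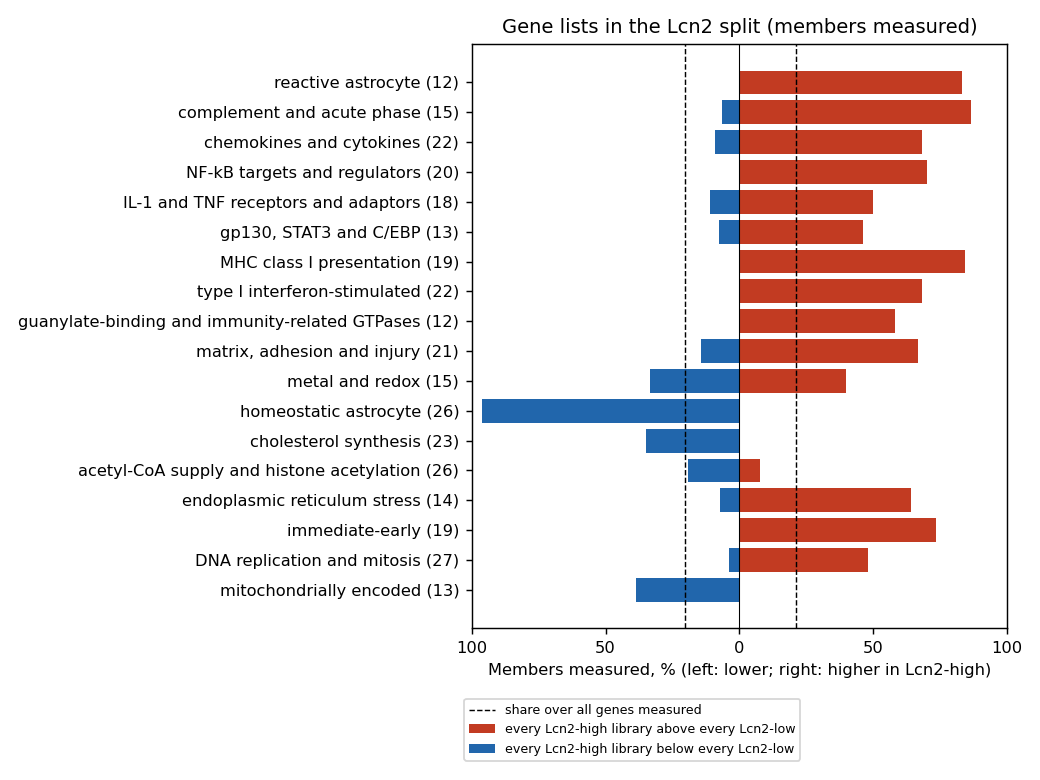
Share of each function list's measured members (number in brackets) with no overlap between the Lcn2 sets, in percent: red bars to the right for higher and blue bars to the left for lower in the Lcn2-high libraries. Dashed lines mark the shares over all genes, 21% higher and 20.2% lower. Complement and MHC class I genes lie mostly to the right, with 13 of 15 and 16 of 19, and homeostatic astrocyte genes to the left with 25 of 26.

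The 12 largest gaps among the lower genes were 3.07-fold to 4.80-fold. Agt, the precursor of angiotensin, led with 125, 155 and 165 CPM in the Lcn2-high and 795, 1089 and 797 CPM in the Lcn2-low libraries. Slc6a11, a GABA transporter, stood at 96.7, 114 and 129 against 576, 553 and 607 CPM. Hes5, a transcription factor of Notch signalling, stood at 11.4, 18.1 and 27 against 128, 112 and 129.7 CPM. Ptch1, the Hedgehog receptor, stood at 131, 121 and 135 against 461, 420.1 and 423 CPM. Igsf1, Extl1, Olfr287, Etnppl, Nat1, Nkain4 and Cldn10 were also among them. Since the 12 were chosen by this gap, the 3 low libraries lie above the 3 high ones in each of them by construction.

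The 12 genes with the largest gaps among the higher genes were led by Acod1, Clec4e and Trem1. Acod1, the enzyme that makes itaconate in macrophages, stood at 331, 388 and 149.7 CPM in the Lcn2-high libraries and 1.14, 0.384 and 0 CPM in the Lcn2-low. Clec4e, a C-type lectin receptor, stood at 307, 333 and 132 against 0.38, 1.15 and 0 CPM. Trem1, a receptor of neutrophils and monocytes, stood at 156, 162 and 68.3 against 0.38, 0.384 and 0 CPM. The others were Saa3, Il1r2, Hcar2, Wfdc17, Slfn2, Orm2, Cxcl2, Clec4d and Mcemp1. No fold is given for Acod1, Clec4e and Trem1, since their Lcn2-low libraries held few or no counts.

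Matrix, adhesion and injury genes were higher for 14 of 21 and lower for 3, where 21% of all genes were higher and 20.2% lower. Fn1, fibronectin, stood at 499.8, 505 and 304 against 122, 108 and 118 CPM, whereas Bcan, the brain proteoglycan brevican, stood at 242, 308 and 550.3 against 1724, 1472 and 2003 CPM. Immediate-early genes, which answer to many stimuli and to tissue dissociation, were higher for 14 of 19 and lower for 0, with 0 at a 2-fold gap: Fos stood at 2569.7, 2705 and 2103 against 1412, 1759 and 1348 CPM. Chaperones of endoplasmic reticulum stress were higher for 9 of 14 and lower for 1, with Hspa5 at 1233, 1129.5 and 1047 against 744, 644 and 686 CPM. DNA replication and mitosis genes were higher for 13 of 27 and lower for 1. Ccnb2, a mitotic cyclin, stood at 9.42, 7.89 and 11.6 against 6.09, 3.46 and 4.95 CPM. All of these gaps but those of matrix genes were under 2-fold.

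Metal and redox genes were separated in both directions, higher for 6 and lower for 5 of 15, against 21% and 20.2% of all genes, with the ferritin chain Fth1 at 3894, 3764 and 3232 against 1574, 2114 and 1422 CPM and the iron uptake receptor Tfrc at 58.2, 67 and 72.5 against 114, 102 and 112 CPM. Cholesterol synthesis genes were lower for 8 of 23 and higher for 0. Genes of acetyl-CoA supply and histone acetylation were higher for 2 and lower for 5 of 26, and Acly and Ep300 both overlapped. Mitochondrially encoded genes were lower for 5 of 13, among them mt-Co1 at 5309, 6055 and 5801 against 7177, 7023 and 7131 CPM.

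The 2X libraries, which the Lcn2 rule did not use, gave a test of the split genes by treatment label. Lcn2 is in no count here, but it too was arranged by label in these libraries, at 374 to 578 CPM in 2X PBS and 1.23 to 14.9 CPM in 2X cytokine, so the direction of this comparison matches that of the split through Lcn2 itself. A fit of the 6 2X libraries alone, 3 in each group, called 1065 of 13765 genes (7.74%), 731 (5.31%) lower and 334 (2.43%) higher in 2X cytokine, by edgeR's quasi-likelihood test at an adjusted p under 0.05. Of the 327 genes higher in the Lcn2-high set, 280 were tested there, and 222 (79.3%) fell and 0 rose in 2X cytokine. The other 47 did not pass the expression filter, which a gene can pass through 1 group alone. Members near 0 in 2X cytokine, such as Acod1 at 2.86, 0.377 and 0.3 CPM, entered through 2X PBS and could only fall. How many were of this kind was not counted. Their median log2 fold change was -2.03, also with the 3 genes at 0 in every 2X cytokine library put at the bound of 3 counts, and the median of all genes tested was 0.00916. Of the 196 genes lower in the Lcn2-high set, 194 were tested, 51 (26.3%) rose and 1, Itih3, fell, with a median of 0.318. The 51 became 27 without 2X PBS replicate 2 and 33 without 2X cytokine replicate 1, and the 1065 became 671 without 2X PBS replicate 2 and 670 without 2X PBS replicate 3. With all 6 libraries, the 280 genes higher in Lcn2-high made up 30.4% of all lower calls. The 194 lower ones made up 15.3% of all higher calls, both out of 13765 genes tested.

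That count rests on the choice of libraries in the fit. In one fit of all 12 libraries, whose spread takes in the 1X libraries that differ among themselves, the same contrast called 5 genes, 0 of them among the 327 or the 196. Of 37 single genes followed through both fits that the fit of 6 called, 36 lost their call in the fit of 12, and Timp1 kept it. The fold changes were nearly the same there, with Gfap at -3.10 on the log2 scale (edgeR adjusted p = 0.105) and C3 at -4.53 (edgeR adjusted p = 0.396), so the calls moved with the estimate of spread. The biological coefficient of variation was 0.114 in the 6 2X libraries, 0.309 in the 6 1X libraries and 0.237 over 12. The difference of the cytokine response between 2X and 1X, tested over all 12, gave 0 calls among 14490 genes in edgeR (754, or 5.2%, at an unadjusted p under 0.05) and 13 in DESeq2. Markers of other cell types also moved with the 2X labels, by which 5.31% of all genes tested were called lower and 2.43% higher in the fit of 6. Neutrophil markers summed to 358 to 470 CPM in 2X PBS and 61.8 to 226 CPM in 2X cytokine, with 6 of 9 called lower. Monocyte markers summed to 377 to 413 against 129 to 206 CPM (8 of 12 called lower) and microglia markers to 1269 to 1692 against 588 to 1176 CPM (9 of 20 called lower). Oligodendrocyte markers went the other way, at 3170 to 4579 CPM in 2X PBS and 5986 to 7146 CPM in 2X cytokine (9 of 13 called higher), as did the endothelial sum, at 861 to 915 against 1080 to 1209 CPM (1 of 14 called higher and 1 lower). Sums of ependymal, red cell, choroid plexus and mural and fibroblast markers overlapped between the 2X labels. Ependymal sums were 725 to 894 against 866.5 to 1045 CPM (3 of 13 called higher and 1 lower), and red cell sums 514 to 3570 against 2532 to 13450 CPM (0 of 7 called). Choroid plexus sums were 18980 to 22000 against 5631 to 20130 CPM (0 of 12 called), and mural and fibroblast sums 6151 to 7252 against 4990 to 7680 CPM (5 of 15 called lower). The part of these cell types in the counts was not tested.

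**Figure D3:**
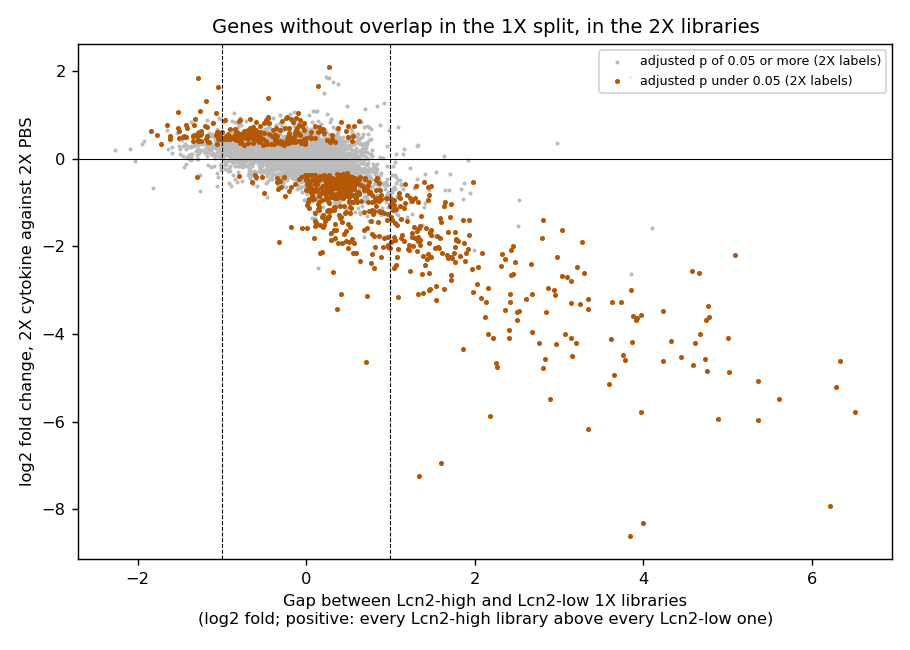
Genes with no overlap between the Lcn2 sets, 1 point per gene: the gap in the 1X libraries (log2 fold, positive where higher in Lcn2-high) against the log2 fold change of 2X cytokine over 2X PBS. Orange points passed an adjusted p of 0.05 in the fit of the 6 2X libraries, and dashed lines mark a 2-fold gap. Right of the dashed line 222 of 280 genes passed below 0 and 0 above it. Genes near 0 in 2X cytokine entered the test through 2X PBS and could only fall.

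In the 2X libraries the reactive astrocyte list had 8 of 12 tested members lower in 2X cytokine and 0 higher, against 5.31% and 2.43% of all genes tested. Gfap stood at 1141, 1042 and 1095 CPM in 2X PBS and 149.9, 119 and 113 CPM in 2X cytokine, and fell by 3.09 ± 0.12 (SE) on the log2 scale (edgeR adjusted p = 2.77e-08). Serpina3n stood at 977, 691 and 676 against 28.2, 28.3 and 29.7 CPM and fell by 4.75 ± 0.16 (edgeR adjusted p = 2.27e-08). Timp1, which overlapped in the 1X split, stood at 192, 180.4 and 158 against 17.5, 6.03 and 11.1 CPM and fell by 3.91 ± 0.21 (edgeR adjusted p = 6.18e-07). All 2X PBS libraries lay above all 2X cytokine libraries for these 3 genes. For Gfap the 2X cytokine values lay under those of every Lcn2-low library and the 2X PBS values above those of every Lcn2-high library.

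Complement and acute phase genes fell in 2X cytokine for 10 of 15, and chemokines and cytokines for 12 of 21, against 5.31% of all genes tested. C3 stood at 629, 337 and 419.6 CPM in 2X PBS and 22.5, 17.7 and 19.5 CPM in 2X cytokine and fell by 4.51 ± 0.23 (edgeR adjusted p = 3.72e-07). Saa3 stood at 61.8, 70.4 and 60.1 against 0.357, 0.377 and 0 CPM (edgeR adjusted p = 3.74e-08), with too few counts in 2X cytokine for a fold. Cxcl2 fell by 4.10 ± 0.27 (edgeR adjusted p = 2.04e-06), from 67.7, 47.7 and 54.5 to 4.64, 3.77 and 1.5 CPM. The groups did not overlap for C3, Saa3 or Cxcl2.

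Over all genes tested in 2X, 5.31% were called lower and 2.43% higher. Of the other lists that were higher in Lcn2-high, MHC class I genes fell for 12 of 18 and interferon-stimulated genes for 7 of 21. Matrix genes fell for 13 of 21 with 2 higher, and IL-1 and TNF receptors and adaptors for 6 of 18. Guanylate-binding and immunity-related GTPases fell for 4 of 11, chaperones of endoplasmic reticulum stress for 7 of 14, and genes of gp130 and STAT3 signalling for 3 of 13 with 1 higher. Not all such lists fell: immediate-early genes were called lower for 2 and higher for 3 of 19, with a median log2 fold change of 0.214, and DNA replication and mitosis genes were called for 0 of 27, with a median of 0.0363. NF-κB genes were divided: 7 of 20 fell and 2 rose. Nfkbia had a log2 fold change of -0.21 (edgeR adjusted p = 0.38) and Tnfaip3 one of 0.01 (adjusted p = 0.986), so the 2 inhibitors that were higher in the Lcn2-high libraries were not called by the 2X labels. Relb fell by 1.02 ± 0.20 (edgeR adjusted p = 0.00736).

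Homeostatic astrocyte genes rose in 2X cytokine for 9 of 26 and fell for 0, against 2.43% and 5.31% of all genes tested. Cldn10 stood at 264, 259.8 and 247 CPM in 2X PBS and 377, 388 and 327 CPM in 2X cytokine, a log2 fold change of 0.51 ± 0.09 (edgeR adjusted p = 0.0049). Slc7a10, a transporter of small neutral amino acids, stood at 592, 574 and 534 against 815, 773 and 737 CPM, a change of 0.46 ± 0.09 (edgeR adjusted p = 0.0066). Slc1a2 was not called, at 1765, 1823 and 2015 against 1783, 1665 and 1717 CPM (log2 -0.11, edgeR adjusted p = 0.567), nor was Aqp4 (log2 -0.03, adjusted p = 0.888). Agt, Hes5 and Slc6a11, 3 of the largest gaps of the 1X split, were not called either, with log2 fold changes of 0.21, -0.04 and 0.24. The summed level of the list was 51700 to 57500 CPM in 2X PBS and 60830 to 69510 CPM in 2X cytokine, so both 2X groups lay above the Lcn2-high range.

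Some genes without overlap went against this order. Among the 2911 higher in every Lcn2-high library, 2798 were tested in 2X, 565 fell and 26 rose in 2X cytokine. Among the 2793 lower, 2772 were tested, 200 rose and 25 fell. Of all genes tested, 5.31% fell and 2.43% rose. Socs3 and Nfkbiz were among the 26. Nfkbiz, an atypical IκB protein, stood at 444, 478 and 338 CPM in the Lcn2-high libraries and 172, 253 and 146 CPM in the Lcn2-low, yet at 175, 171 and 178 CPM in 2X PBS and 381, 325 and 236 CPM in 2X cytokine, a log2 fold change of 0.85 ± 0.14 (edgeR adjusted p = 0.00294). Socs3 stood at 232, 252 and 251 against 417, 433 and 355 CPM, a change of 0.72 ± 0.10 (edgeR adjusted p = 0.000695). Irf1, an interferon-responsive transcription factor, overlapped in the 1X split at 128, 136 and 144 against 118, 186 and 99.5 CPM and rose in 2X cytokine by 0.89 ± 0.14 (edgeR adjusted p = 0.00175). Others of the 26, named after their values were seen, were the immediate-early genes Egr1 and Fosb and the cilia genes Tmem212 and Ccdc153.

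Markers of several other cell types were separated by Lcn2 as well, where 21% of all genes were higher and 20.2% lower in every Lcn2-high library. In bulk samples, fewer cells of a type and less RNA per cell cannot be told apart. Sums of markers are over all members of a list found in the files, also those too low to be measured singly. Of the 9 neutrophil markers measured, 8 were higher in every Lcn2-high library, and the 15 on the list summed to 683 to 1624 CPM in the high set and 46.1 to 60.4 CPM in the low set. S100a9, a calcium-binding protein abundant in neutrophils, stood at 316, 419.8 and 158 against 5.71, 5.76 and 5.49 CPM, and Csf3r, the receptor for granulocyte colony-stimulating factor, at 313, 329 and 148 against 10.7, 8.06 and 6.04 CPM. Monocyte and macrophage markers were higher for 9 of 10 measured, and the 15 on the list summed to 563 to 1230 against 157 to 190 CPM. Microglia markers overlapped in sum, at 1027 to 2685 against 887 to 1381 CPM. With 5 of 20 higher and 3 lower, they were near the shares of all genes. Csf1r, the receptor that maintains microglia, stood at 366, 407 and 131 against 145, 184 and 255 CPM. The 2 T and NK cell genes and the 1 B cell gene measured overlapped.

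Markers of tissue near the ventricle and of vessels moved in the same direction. Choroid plexus markers were higher in every Lcn2-high library for 9 of 12, against 21% of all genes, and summed to 36220 to 40870 against 12820 to 30740 CPM. Ependymal markers were higher for 13 of 13, summing to 1027 to 1287 against 546 to 709 CPM; Foxj1, a regulator of motile cilia, stood at 186, 119 and 123 against 60.1, 58.4 and 93.4 CPM. Mural and fibroblast markers were higher for 8 of 15 and lower for 1, summing to 8643 to 10870 against 4378 to 6736 CPM. Red cell genes were higher for 5 of 7 and spread widely, from 7661 to 64890 CPM against 955 to 6134 CPM. Endothelial markers were higher for 9 of 13 and lower for 1, all by less than 2-fold, and their sums overlapped at 1048 to 1101 against 903 to 1062 CPM. Oligodendrocyte and neuron markers also overlapped in sum. Of 13 oligodendrocyte markers 2 were higher and 2 lower, and of 7 neuron markers 3 were higher and 1 lower, against 21% and 20.2% of all genes.

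**Figure D4:**
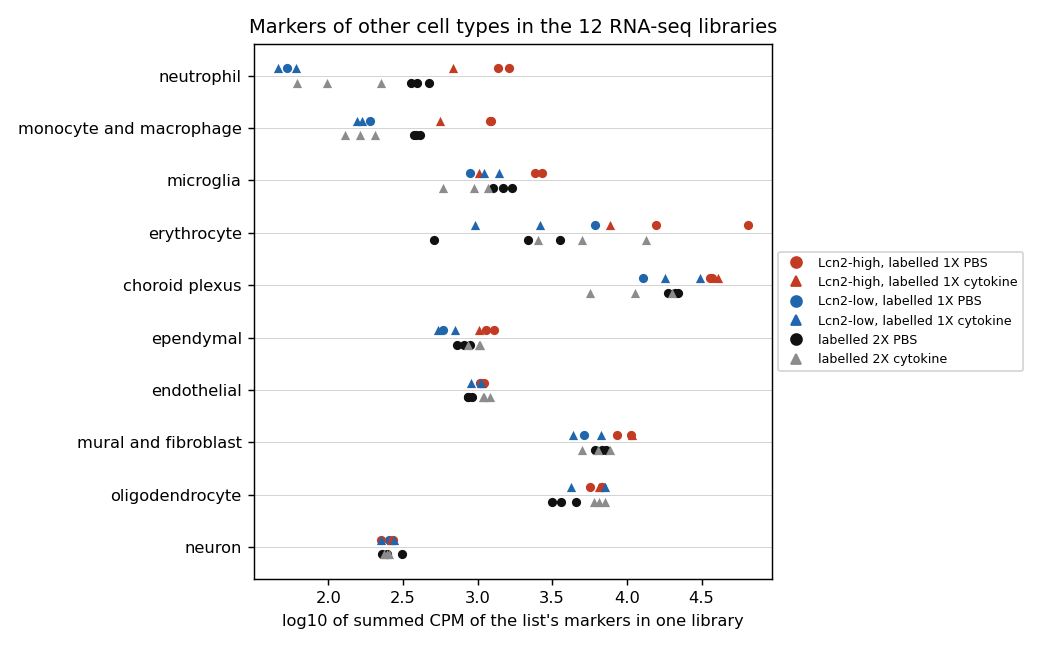
Summed CPM of the markers of 10 other cell types in each of the 12 RNA-seq libraries, on a log10 axis. Points are single libraries, with the 1X libraries in the upper row of each line, coloured by Lcn2 set, and the 2X libraries in the lower row. Neutrophil sums are 683 to 1624 CPM in Lcn2-high and 46.1 to 60.4 CPM in Lcn2-low libraries, while microglia and neuron sums overlap.

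The Lcn2-high set was not uniform across its labels. The library labelled cytokine lay under both libraries labelled PBS for 19 of 20 microglia markers, 9 of 10 monocyte markers and 8 of 9 neutrophil markers, with median ratios to their mean of 0.383, 0.326 and 0.439. Over all 13851 genes measured, that library lay under both for 5155 and above both for 5215, with a median ratio of 0.999. Reactive astrocyte genes went both ways, 5 of 12 under both libraries labelled PBS and 6 above both, with a median ratio of 0.998. Complement and acute phase genes were under both for 6 of 15 and above both for 3, with a median ratio of 0.959. NF-κB genes had a median ratio of 0.715, with 16 of 20 under both libraries labelled PBS. Homeostatic astrocyte genes had one of 1.4, with 25 of 26 above both. With 1 library against 2 there is no test of this.

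**Figure D5:**
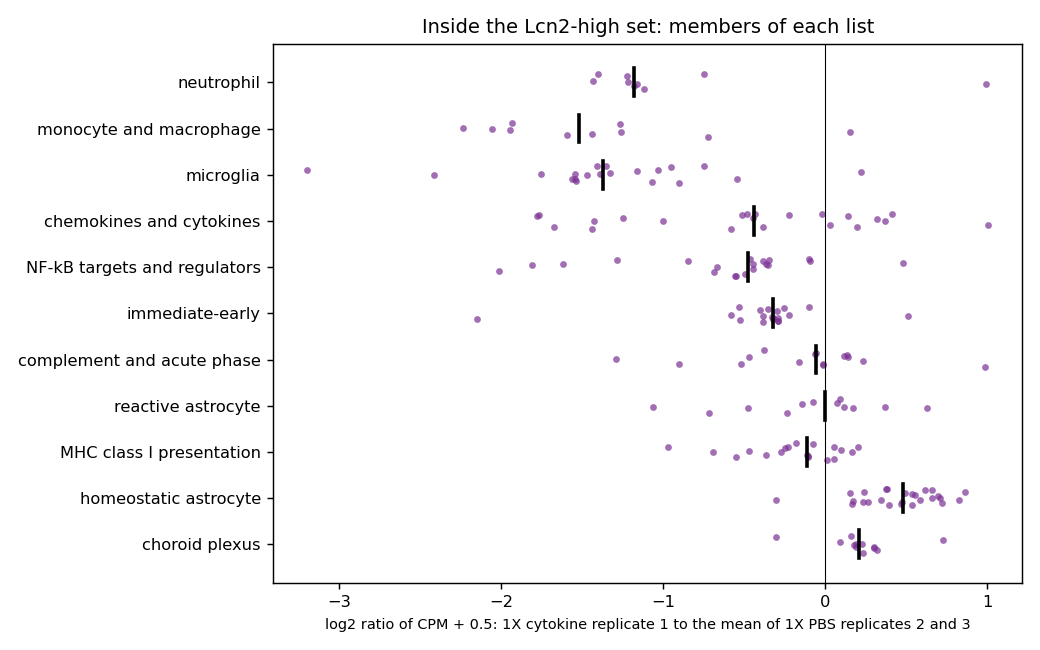
Members of 11 lists inside the Lcn2-high set: log2 ratio of CPM + 0.5 in 1X cytokine replicate 1 to the mean of 1X PBS replicates 2 and 3. Each point is a gene and each black bar a list median. Myeloid lists lie left of 0, reactive astrocyte and complement genes on both sides of it and homeostatic astrocyte genes right of 0.

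Inside the Lcn2-low set, 1X PBS replicate 1 lay under both libraries labelled cytokine for 19 of 20 microglia and 12 of 12 choroid plexus markers, with median ratios of 0.66 and 0.534 to their mean. It lay above both for 7 of 7 red cell genes, with a median ratio of 3.37. Reactive astrocyte and neutrophil genes had median ratios of 0.998 and 1.01, and monocyte markers one of 0.746. Homeostatic astrocyte genes were above both for 20 of 26, with a median ratio of 1.17. Over all 13851 genes measured, 1X PBS replicate 1 lay under both for 4453 and above both for 4765, with a median ratio of 1.0. These values carry no test either.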

How the data were processed

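RNA-seq was read from 12 libraries of sorted mouse astrocytes, 3 for each combination of schedule (1X or 2X) and injection (PBS or cytokine). The other 19 samples of the series, ATAC-seq samples among them, were not analysed here. The deposited files give estimated counts and TPM per transcript, made with kallisto 0.46.1 on the GRCm38 transcriptome per the labels' protocols and the submitters' processing notes. Estimated counts differ in total between libraries as deposited, and TPM as deposited sums to one total in each. The deposited effective lengths are other values and were not needed for the main results. SMART-Seq2 libraries were made per the labels' protocols; use of strand is not given there, so overlapping genes on opposite strands may share reads, and hemoglobin genes, like other close copies, may too.

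Estimated counts were summed to 55401 genes, rounded, filtered with filterByExpr by label and scaled by TMM over 12 libraries (edgeR 4.0.16, R 4.3.3). Gene positions are those of GENCODE M21, whose identifiers matched 98.1% of the genes. The Lcn2 sets were compared without a test, by overlap and gap on CPM + 0.5. Labels were compared with edgeR's quasi-likelihood test at a Benjamini-Hochberg adjusted p of 0.05, and the difference between schedules with an interaction term. DESeq2 1.42.0 and limma 3.58.1 were alternatives, as were other normalisations, filters and gaps, a replicate block and leaving out each library. The scripts were tested on simulated data. Floors of 3 counts cover counting error only.

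The members and gene lists were chosen with earlier results of these data known. The 2X labels were fitted on their 6 libraries alone so that no library used by the Lcn2 rule entered the test, but this choice was made knowing that the fit of 6 calls 1065 genes and the fit of 12 calls 5. Named genes were the 12 protein-coding genes of largest gap in each direction with a mean of at least 5 CPM, for each function list up to 3 members of largest gap and up to 2 of highest mean, up to 3 of highest mean for each cell type list, a fixed panel of 31 genes, and the extreme genes within each set. Some genes that this rule or the lists name are not reported here. Other list members named in the text, the thinning to equal depth, the motif search and the genes followed through the alternatives were chosen after their values were seen.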

Additional observations from a re-analysis of the deposited data

How the results depend on the processing

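Leaving out 1 library of the Lcn2 split gave 339 to 537 genes higher and 211 to 410 lower at a 2-fold gap, the largest without 1X cytokine replicate 1, and 6471 to 7371 genes with no overlap; smaller sets overlap less by construction. The count for 2X cytokine against 2X PBS was 1691 with no filter beyond 1 count, 347 and 317 by limma on log2(TPM + 1) and log2(TPM + 0.1), 5 in one fit of 12 libraries, and 670 to 931 without 1 library, lowest without 2X PBS replicate 3 and 671 without replicate 2. Of the genes higher in the Lcn2-high set, 0 were called in the fit of 12, 208 by DESeq2 and 193 to 222 without 1 library. With a 4-fold gap 101 of 107 tested were called, and with no overlap 591 of 2798, where the main rule called 222 of 280. Of the lower genes, 0 were called in the fit of 12 and 27 to 48 without 1 library, lowest without 2X PBS replicate 2. With a 4-fold gap only 3 lower genes were tested and 0 called, and with no overlap 225 of 2772 were called. Over all genes tested in 2X, 7.74% were called. The 1X labels gave 0 calls under every alternative run except limma, with 11 and 12. The difference between schedules gave 13 calls by DESeq2, 70 with no filter beyond 1 count, 1 and 2 by limma, and 0 to 17 without 1 library, 17 being without 1X PBS replicate 1. Except for the fit of 12, whose larger spread stands in the report, the cause of these moves was not tested.

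Same-numbered libraries had correlations of -0.659, -0.343 and -0.42 in their deviations from the group means in 1X. In 2X they were -0.0449, -0.0507 and -0.0114. Each same-numbered 1X pair spans both Lcn2 sets, while 1X pairs inside a set, all of different number, had correlations of 0.4 to 0.586. The 1X signs thus follow the split, and these values cannot settle whether replicate numbers pair the samples. With a replicate block the counts were 794 for the 2X labels, 209 and 38 for the higher and lower split genes, and 0 for the 1X labels and for the difference.

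Of 659 single values over 44 genes, 576 kept their direction and call, 76 lost the call and 7 changed sign. The sign changes were of 3 genes never called: Aqp4 at 0.046 and 0.0461 and Slc1a2 at 0.0429 and 0.043 by limma, and without 1 library Aqp4 between -0.111 and 0.0116 and Hes5 between -0.159 and 0.0937. Genes at 3 counts or fewer in a library, at 0.543 to 1.60 CPM, are limited by depth.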

Other observations

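Single libraries inside a Lcn2 set also differed in single genes. In the Lcn2-high set, 1X cytokine replicate 1 lay above both libraries labelled PBS by at least 2-fold for 44 genes and below both for 423, whereas 1X PBS replicate 2 lay so above its set for 26 and below for 83, and 1X PBS replicate 3 for 48 and 43. Among the extreme genes below was Arg1, an arginase of macrophages, at 93.1, 36 and 3.44 CPM in the Lcn2-high libraries and 1.9, 0.384 and 0.549 CPM in the Lcn2-low. C1qc, a complement gene of microglia, was another, at 52.1, 41.7 and 4.67 against 2.66, 18.8 and 36.3 CPM. Above both was Crym, which binds thyroid hormone, at 15.8, 21.6 and 68.1 CPM, while its Lcn2-low values were 45.6, 37.6 and 52.2 CPM.

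In the Lcn2-low set, 1X PBS replicate 1 lay above both libraries labelled cytokine by at least 2-fold for 85 genes and below both for 269, against 130 and 131 for 1X cytokine replicate 2 and 122 and 207 for 1X cytokine replicate 3. Ackr1, a chemokine decoy receptor of venules and red cells, was among the extreme genes above, with 6.09, 0.768 and 1.1 CPM in the Lcn2-low libraries, and it was higher still in the Lcn2-high libraries at 39.6, 62.2 and 17 CPM. C1qc was among the extreme genes below in this set too. These values carry no test, since each sets 1 library against 2.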
